A study of Mus musculus with 12 samples.

Results

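The 40 genes described here act in mitosis, the stage at which a cell condenses its copied chromosomes, attaches them to the spindle, separates them and divides. They were taken by symbol from a list of mitotic cyclins and kinases, kinetochore, condensin and cytokinesis genes. The rule uses no measured value, but the list was made with earlier results of these data known. All 40 have a line in the table of 45796 genes, and 38 of them were above 0 in any library, as were 9732 genes of the whole table. Ncaph, a condensin subunit, and Anln, the contractile ring scaffold anillin, were listed at 0 in all 12 libraries.

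RNA came from Vg4+Vd4+ gamma delta T cells of skin-draining lymph nodes of C57BL/6 mice, a T cell subset named for its receptor chains and known for rapid cytokine release in skin inflammation. The 4 groups of 3 libraries were wild-type mice given sham cream, wild-type mice given imiquimod cream, NF-kB1-deficient mice given sham cream and NF-kB1-deficient mice given imiquimod cream. The drug, which stimulates Toll-like receptors, brings on a psoriasis-like inflammation of mouse skin, and NF-kB1 (p105, cut to p50) forms part of NF-kB dimers. The labels give neither the age of the mice, the dose or duration of the cream, the allele behind the deficiency nor the cell type it affects, and they do not say whether the 3 libraries of a group came from separate animals or from pools. The p-values below therefore measure the spread between these libraries, which may be technical.

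Most mitotic genes are silent in a resting T cell and are switched on together late in the cell cycle. CDK1 bound to cyclin A or B starts mitosis, condensin and topoisomerase II shape the chromosomes, and kinetochores built on CENP-A centromeres take up microtubules. The checkpoint proteins hold the anaphase-promoting complex in check until every kinetochore is attached, after which securin and cyclin B are destroyed. Many of these genes carry a short cell-cycle homology element (CHR) and CCAAT boxes in front of their start. Through the CHR, the DREAM and MMB-FOXM1 complexes repress them in rest and activate them later.

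Values are normalized read counts on a linear scale, called normalized values below. Each library held few reads: the steps of the low values imply 20504 to 69452 reads on genes, with a median of 35382, and 1 read was worth 0.488 to 1.98. The wild-type imiquimod libraries were not deeper (35153, 35610 and 20504 reads) than the wild-type sham libraries (30540, 69452 and 27960), while those of NF-kB1-deficient mice with imiquimod (67032, 45936 and 51152) were mostly deeper than their sham controls (47409, 29114 and 27121). The table holds no value between 0 and 1, so where a read was worth less than 1 (5 libraries) a listed 0 can hide one, or 2 reads in wild-type sham replicate 2. The 5 were that library, NF-kB1-deficient sham replicate 1 and all 3 NF-kB1-deficient imiquimod libraries. In the wild-type imiquimod libraries single reads were kept, so low values are not treated alike in the imiquimod groups. The kit reads 1 fragment per transcript near its 3' end, so values do not scale with transcript length.

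In wild-type mice the mitotic genes as a group stood higher under imiquimod than under sham. Their summed normalized value was 117, 128 and 186 with sham cream against 377, 283 and 615 with imiquimod. In NF-kB1-deficient mice it was 189.7, 85.4 and 141 under sham and 182, 147 and 193 under imiquimod. The 3 wild-type imiquimod libraries lay above the other 9 libraries, and the other 3 groups overlapped. As mean ± SD (n = 3 each), the sums were 144 ± 36.9 for wild-type sham, 425 ± 171 for wild-type imiquimod, 139 ± 52.2 for NF-kB1-deficient sham and 174 ± 24.4 for NF-kB1-deficient imiquimod. The ratio of the imiquimod to the sham mean was 2.96 in wild type and 1.26 in NF-kB1-deficient mice. In bulk RNA, more cells in mitosis and more of these transcripts per cell cannot be told apart. No p-value is given for a sum over genes chosen with earlier results known.

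**Figure D1:**
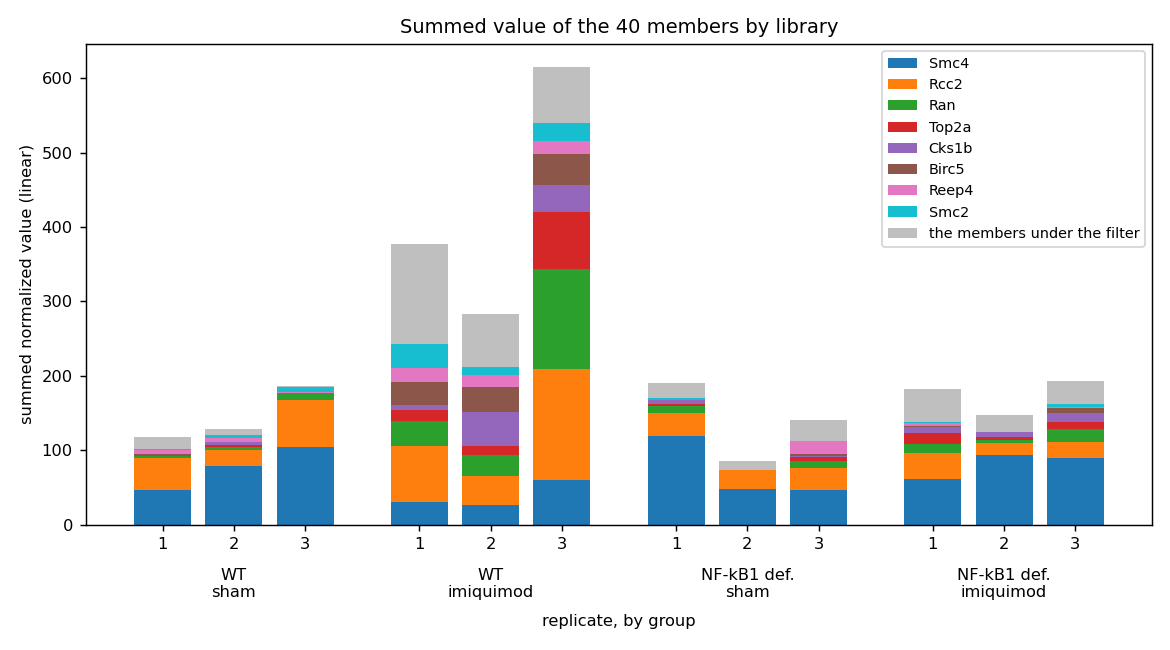
Summed normalized value (linear, y axis) of the 40 mitotic genes in each of the 12 libraries, split by colour into the 8 genes that were tested and the 32 under the filter on low values. The wild-type imiquimod bars reach 377, 283 and 615, and the highest of the other bars reaches 193.

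The condensin subunit Smc4 had the highest value summed over the 12 libraries (804), with means of 76.7 in wild-type sham and 38.8 in wild-type imiquimod. Without it the group means were 67.1 ± 16.8 (SD, n = 3) for wild-type sham, 386 ± 153 for wild-type imiquimod, 67.7 ± 29.0 for NF-kB1-deficient sham and 92.7 ± 35.3 for NF-kB1-deficient imiquimod. The ratio of imiquimod to sham was then 5.76 in wild type, and that of NF-kB1-deficient mice was 1.37. Smc4, Rcc2 and Ran, the most abundant of the 40 genes, also act outside mitosis. Without them, a step chosen after seeing the data, the means were 19.2, 233, 32.6 and 57.5 in the order wild-type sham, wild-type imiquimod, NF-kB1-deficient sham and NF-kB1-deficient imiquimod. As a share of each library's summed value, the 40 genes took 0.343% to 0.535% in wild-type sham, 0.755% to 1.51% in wild-type imiquimod, 0.268% to 0.544% in NF-kB1-deficient sham and 0.457% to 0.583% in NF-kB1-deficient imiquimod.

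The number of these genes that could be seen also differed. At a normalized value of at least 5, wild-type sham libraries showed 4, 3 and 4 of them and wild-type imiquimod libraries 19, 14 and 11, with 5, 2 and 6 in NF-kB1-deficient sham and 6, 6 and 8 in NF-kB1-deficient imiquimod. At that cut-off, which was added to the plan later, the 3 wild-type imiquimod libraries stood above all others. At the planned cut-off of at least 2 the numbers were 9, 9 and 4 in wild-type sham and 22, 17 and 13 in wild-type imiquimod. They were 8, 5 and 11 in NF-kB1-deficient sham and 15, 9 and 14 in NF-kB1-deficient imiquimod. There the wild-type groups did not overlap, but the imiquimod groups of the 2 genotypes did. Counts at 2 or 5 were not made over all genes. These cut-offs also took unequal numbers of reads. A read was worth 1.05, 1.05 and 1.98 in wild-type imiquimod and 0.501, 0.699 and 0.649 in NF-kB1-deficient imiquimod. Fewer reads were therefore needed to reach a cut-off in the wild-type imiquimod libraries. Counting any value above 0, the numbers were 11, 11 and 6, then 28, 20 and 14, then 8, 5 and 20, then 28, 10 and 17 in the same order. On that count NF-kB1-deficient imiquimod replicate 1, with 67032 reads, reached the 28 genes of wild-type imiquimod replicate 1, with 35153, although it had 6 at a value of at least 5 against 19. Over the 38 genes seen in any library, 28 had a higher mean under imiquimod than sham in wild type (73.7%) and 24 in NF-kB1-deficient mice (63.2%). Of all 9732 genes above 0, 39.3% and 46.5% did.

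**Figure D2:**
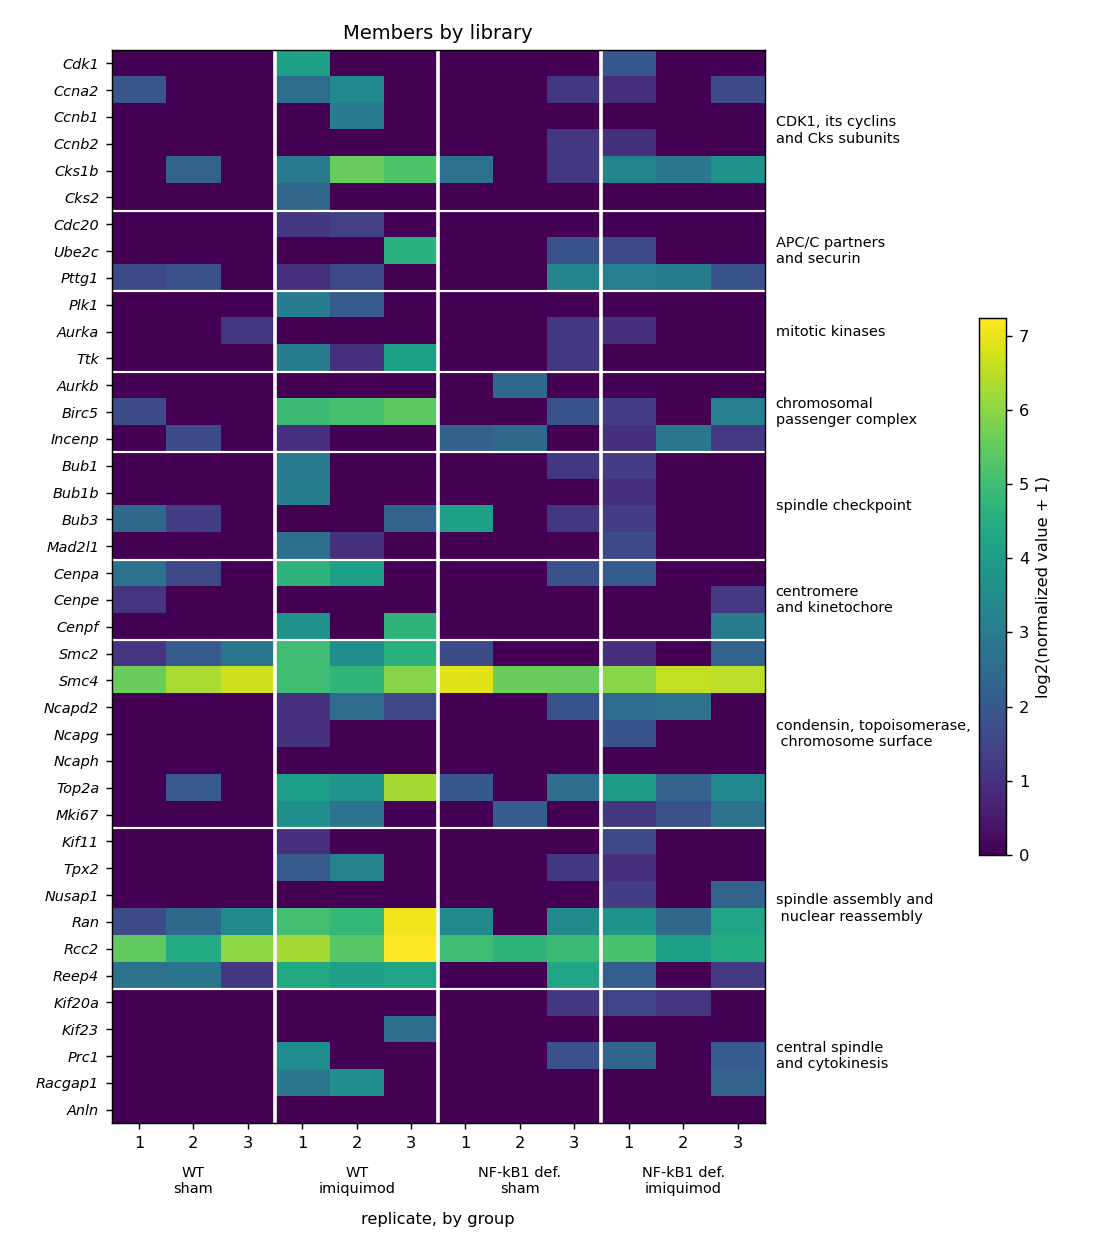
Each of the 40 genes (rows, grouped by role) in each of the 12 libraries (columns, grouped by genotype and cream), with colour giving log2(normalized value + 1). Smc4 and Rcc2 are above 0 in every library, while most other rows are bright mainly in the wild-type imiquimod columns.

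Tests were possible for 8 of the 40 genes, those whose normalized value averaged 5 or more: Smc4, Rcc2, Ran, Top2a, Cks1b, Birc5, Reep4 and Smc2. They entered 1 limma fit of 1571 genes and all 12 libraries on log2(normalized value + 1), a scale that understates the change of low genes, with calls made at adjusted p under 0.05. In wild-type mice, 4 of the 8 rose with imiquimod (Birc5, Top2a, Cks1b and Ran) and none fell, where 1.65% of the tested genes rose and 1.59% fell. Genes with mean values of 5 or more had to reach them in some group, so a count over these 8 is no measure of the whole list. Without the wild-type imiquimod libraries, Birc5, Top2a, Cks1b, Smc2 and Reep4 would have averaged under 5. Of the called genes only Ran would have passed, so the 4 of 8 set beside 1.65% is no measure of enrichment. The fit without a filter, in which all 38 genes enter, gave a median log2 change of 1.097 over them against 0 over all 9732 genes, and called none of the 38 and 11 of all.

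Birc5 (survivin; Entrez 11799, chromosome 11, 117849237 to 117855743, GRCm38.p6) targets the chromosomal passenger complex to centromeres and also blocks cell death. It stood at 2.24, 0 and 0 in wild-type sham and at 30.4, 33.7 and 41.6 in wild-type imiquimod. In NF-kB1-deficient mice it was 0, 0 and 2.52 under sham and 1.502, 0 and 7.78 under imiquimod. Every wild-type imiquimod library was above every other library, with no overlap. Birc5 rose in wild type by a log2 fold change of 4.60 ± 1.33 (SE; adjusted p = 0.0310), from a mean of 0.745 ± 1.29 to 35.2 ± 5.76 (SD, n = 3). With 1 library left out the change stayed between 4.32 and 5.17, but the call was lost without replicate 2 (adjusted p = 0.0853) or 3 (0.0989) of wild-type sham and without wild-type imiquimod replicate 1 (0.0644), 2 (0.0581) or 3 (0.0590). Incenp, the scaffold of the same complex, was not above 1.05 in any wild-type imiquimod library, and the kinase Aurkb was above 0 in 1 library only, NF-kB1-deficient sham replicate 2 (4.38).

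Top2a (Entrez 21973, chromosome 11, 98992947 to 99024199) encodes the topoisomerase that untangles sister chromatids. Its normalized values were 0, 3.08 and 0 in wild-type sham against 15.2, 12.6 and 76.1 in wild-type imiquimod, a log2 fold change of 4.01 ± 1.16 (SE; adjusted p = 0.0310). In NF-kB1-deficient mice they were 2.94, 0 and 5.03 under sham and 14.7, 3.84 and 9.41 under imiquimod. The wild-type groups did not overlap, and wild-type imiquimod replicate 3 stood far above the other two. The call was lost without that library (log2 fold change 3.22, adjusted p = 0.186), without wild-type imiquimod replicate 1 (0.0575) and without wild-type sham replicate 1 (0.101) or 3 (0.105).

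Cks1b (Entrez 54124, chromosome 3, 89415472 to 89418291) encodes a small subunit that docks CDK complexes on their substrates. In wild-type sham it was at 0, 3.80 and 0 and in wild-type imiquimod at 6.81, 45.8 and 36.6, a rise of 3.83 ± 1.16 on the log2 scale (SE; adjusted p = 0.0423). NF-kB1-deficient libraries had 5.51, 0 and 1.26 under sham and 8.51, 6.29 and 12 under imiquimod. Imiquimod libraries were above sham libraries in both genotypes without overlap, and the call in wild type was lost without replicate 1 (adjusted p = 0.142) or 3 (0.137) of sham, replicate 2 (0.133) or 3 (0.144) of imiquimod, or NF-kB1-deficient imiquimod replicate 1 (0.0596), 2 (0.0587) or 3 (0.0615). The last 400 bases of its transcripts are at least 90% identical over at least 100 bases to Cks1brt. No value above 0 was found for Cks1brt, so no split of reads between the copies was seen. Whether reads that match both were dropped was not tested.

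Ran (Entrez 19384, chromosome 5, 129020156 to 129024322), the GTPase that drives nuclear transport and, in mitosis, spindle assembly around chromosomes, was at 2.24, 4.39 and 9.94 in wild-type sham and 32.5, 27.4 and 134.7 in wild-type imiquimod. It rose by 3.13 ± 0.95 (log2, SE; adjusted p = 0.0423). In NF-kB1-deficient mice it was 9.80, 0 and 10.1 under sham and 12.5, 4.19 and 17.5 under imiquimod. The wild-type groups did not overlap, while those of NF-kB1-deficient mice did. Leaving out wild-type imiquimod replicate 3, the highest library, gave 2.42 (adjusted p = 0.226). The call was also lost without wild-type imiquimod replicate 1 (0.0624), wild-type sham replicate 1 (0.146), 2 (0.0933) or 3 (0.0515), or NF-kB1-deficient imiquimod replicate 1 (0.0521) or 3 (0.0514).

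Smc2 and Smc4 form the coiled-coil pair of every condensin, and in wild type their group means differed in opposite directions. Smc2 (Entrez 14211) was at 1.12, 3.23 and 6.21 in wild-type sham and at 31.4, 10.53 and 23.5 under imiquimod, with no overlap (log2 fold change 2.38 ± 1.30, SE; adjusted p = 0.296, not called). Smc4 (Entrez 70099, chromosome 3, 69004738 to 69034623) was at 47.0, 79.3 and 104 in wild-type sham and 30.8, 26.0 and 59.6 under imiquimod, a log2 fold change of -0.99 ± 0.40 that was not called (adjusted p = 0.139). Its 2 wild-type groups overlapped through wild-type imiquimod replicate 3. In NF-kB1-deficient mice Smc2 was 2.21, 0 and 0 under sham and 1.001, 0 and 3.89 under imiquimod, and Smc4 was 119, 48.2 and 45.9 under sham and 61.2, 93.5 and 89.8 under imiquimod. Smc4 was above 0 in every library, also where Smc2 was listed at 0, but in each wild-type imiquimod library it was below Rcc2. The microRNA genes Mir15b and Mir16-2 lie within Smc4 on its strand. Tmc4-ps overlaps Smc2 on the other strand, and the predicted genes Gm26394 and Gm23451 lie in Top2a and Gm25951 in Rcc2. No source used here says whether the counting was stranded.

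The last tested pair is Reep4 and Rcc2. Reep4, which clears membrane from chromosomes, was at 5.59, 5.86 and 1.24 in wild-type sham and at 19.9, 15.8 and 17.8 under imiquimod, without overlap, but was not called (log2 fold change 2.01 ± 1.23, SE; adjusted p = 0.369). In NF-kB1-deficient mice Reep4 was 0, 0 and 17.6 under sham and 3.51, 0 and 1.30 under imiquimod, so a single sham library held nearly all of that group's value. Rcc2, a chromosomal passenger partner also at work in cell adhesion (Entrez 108911, chromosome 4, 140701473 to 140723220), was at 43.0, 20.5 and 63.3 in wild-type sham and 75.5, 40.002 and 149.5 in wild-type imiquimod. These overlapped (0.98 ± 0.49, adjusted p = 0.245). Its NF-kB1-deficient values were 30.5, 25.2 and 29.6 under sham and 34.6, 16.1 and 20.8 under imiquimod.

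**Figure D3:**
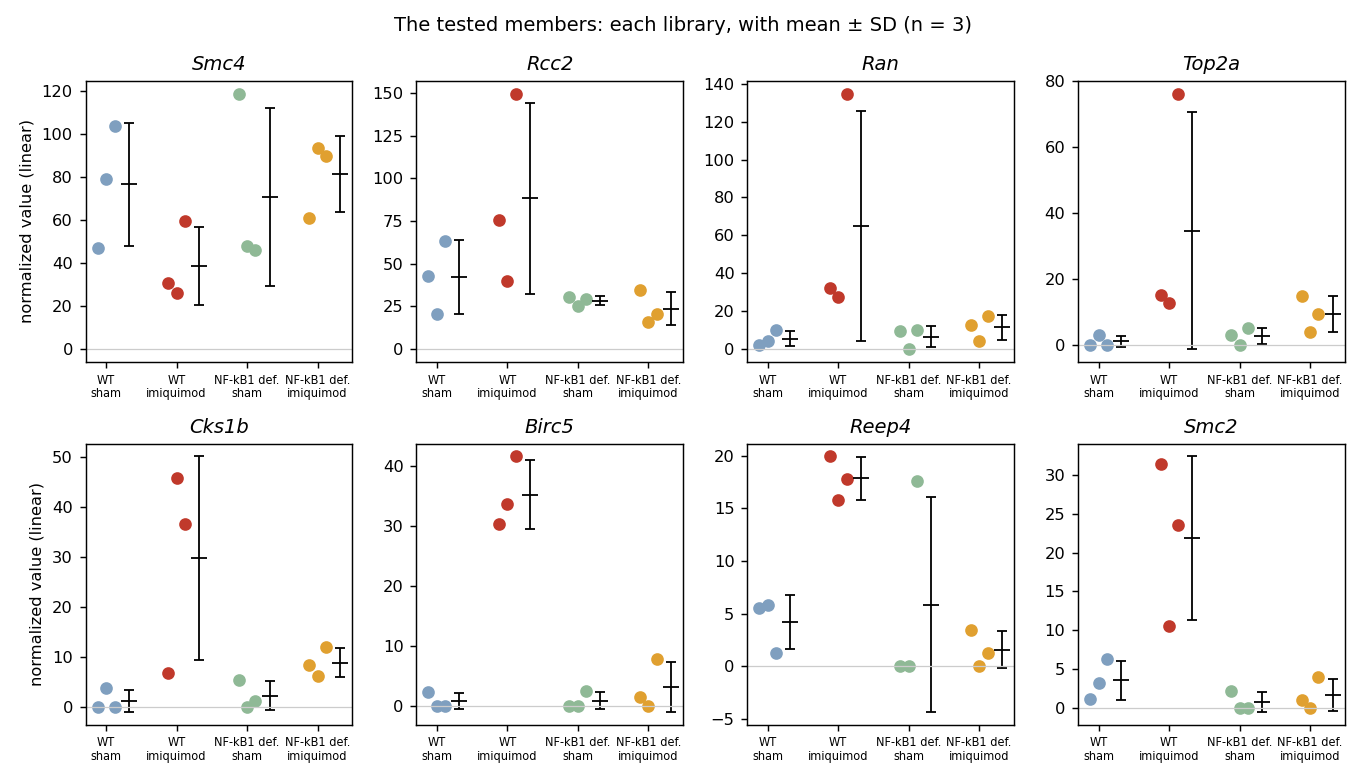
Normalized values (linear, y axis, own scale per panel) of the 8 tested genes in each library (points) with mean ± SD (bars, n = 3) for the 4 groups. In the Birc5 panel the wild-type imiquimod points, at 30.4 to 41.6, are clear of all others, and in the Ran and Top2a panels replicate 3 of that group stands apart at 134.7 and 76.1.

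The other 32 genes were too low to test, with means of at most 4.52 over the 12 libraries. Their summed value was 16.1, 8.05 and 1.24 in wild-type sham and 134, 71.1 and 75.8 in wild-type imiquimod. It was 19.8, 12.04 and 28.9 in NF-kB1-deficient sham and 44.9, 22.8 and 31.0 in NF-kB1-deficient imiquimod. The wild-type imiquimod libraries were again the 3 highest. Because 1 read is worth about 1 unit, a value of a few units in these genes is a few reads in 1 library, and each gene alone shows little. Cdc20, Aurka, Bub1, Bub1b, Mad2l1, Cenpe, Ncapg, Kif11, Tpx2 and Nusap1 stayed at or below 8.42 in every library.

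Among the cyclin genes, Ccna2, the cyclin of S phase and early mitosis, was at 2.80, 0 and 0 in wild-type sham and 4.89, 9.47 and 0 in wild-type imiquimod. In NF-kB1-deficient mice it was 0, 0 and 1.26 under sham and 1.001, 0 and 2.16 under imiquimod. Its highest values were in 2 wild-type imiquimod libraries, and the groups overlapped at 0. Cdk1 itself was above 0 in only 2 libraries (16.2 in wild-type imiquimod replicate 1 and 3.004 in NF-kB1-deficient imiquimod replicate 1). Ccnb1, Ccnb2 and Cks2 stayed at or below 6.84.

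Of the genes for the anaphase-promoting complex and its targets, Ube2c, the E2 enzyme that starts ubiquitin chains on cyclin B, was at 23.8 in wild-type imiquimod replicate 3 and listed at 0 in the other two libraries of that group and in all of wild-type sham. Its NF-kB1-deficient values were 0, 0 and 2.52 under sham and 2.003, 0 and 0 under imiquimod. Pttg1 (securin) took another course. It was at 2.09, 2.44 and 0 in wild-type sham, 1.05, 2.11 and 0 in wild-type imiquimod, 0, 0 and 8.81 in NF-kB1-deficient sham and 7.76, 7.33 and 2.59 in NF-kB1-deficient imiquimod. Under imiquimod all 3 NF-kB1-deficient libraries were above the wild-type ones.

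Ttk (MPS1), the kinase that starts checkpoint signalling, was at 7.34, 1.05 and 15.8 in wild-type imiquimod and listed at 0 in all wild-type sham and all NF-kB1-deficient imiquimod libraries. In NF-kB1-deficient sham it was 0, 0 and 1.26. Plk1, which matures centrosomes, was above 0 in 2 libraries, both wild-type imiquimod (7.34 and 3.16). Bub3, a checkpoint and kinetochore protein, was at 4.47, 1.46 and 0 in wild-type sham and 0, 0 and 3.96 in wild-type imiquimod. In NF-kB1-deficient mice it was 16.2, 0 and 1.26 under sham and 1.502, 0 and 0 under imiquimod, so its highest value was in a sham library.

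Cenpa, the centromeric histone H3 variant, was at 5.59, 1.95 and 0 in wild-type sham and 25.2, 15.8 and 0 in wild-type imiquimod, against 0, 0 and 2.52 in NF-kB1-deficient sham and 3.25, 0 and 0 in NF-kB1-deficient imiquimod. Cenpf, an outer kinetochore protein, was listed at 0 in all 6 sham libraries and was 12.1, 0 and 25.3 in wild-type imiquimod and 0, 0 and 7.14 in NF-kB1-deficient imiquimod. Mki67, which coats mitotic chromosomes and gives the Ki-67 proliferation marker, was at 0 in every wild-type sham library, at 11.2, 5.79 and 0 in wild-type imiquimod, at 0, 3.28 and 0 with NF-kB1-deficient sham and at 1.25, 2.44 and 5.51 in NF-kB1-deficient imiquimod. For each of these 3 genes 1 or 2 wild-type imiquimod libraries held the highest value, and at least 1 library of that group was at 0.

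Ncapd2, a condensin I subunit, was listed at 0 in wild-type sham, at 1.05, 4.74 and 1.98 in wild-type imiquimod, at 4.76, 5.59 and 0 in NF-kB1-deficient imiquimod and at 0, 0 and 2.52 in its sham controls. Racgap1, part of the centralspindlin complex that places the cleavage furrow, was at 6.29, 11.1 and 0 in wild-type imiquimod and 0, 0 and 3.89 in NF-kB1-deficient imiquimod, and at 0 in all sham libraries. The 5 genes of the central spindle and cytokinesis together summed to 0 in each wild-type sham library, 16.8, 11.1 and 4.95 in wild-type imiquimod, 0, 0 and 3.78 in NF-kB1-deficient sham and 5.76, 1.16 and 7.14 in NF-kB1-deficient imiquimod.

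By overlap alone, 8 of the 38 genes (21.1%) had all 3 wild-type imiquimod libraries above all 3 wild-type sham libraries: Birc5, Smc2, Reep4, Ran, Ttk, Top2a, Cks1b and Ncapd2. Of all 9732 genes above 0, 2.61% did so. None of the 38 had all wild-type imiquimod libraries below sham (3.58% of all genes).

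The promoters of 3 of the genes that rose are shown, since the elements through which mitotic genes are switched are short sequences close to the start. Each is the 250 bases before the start, 5' to 3', from RefSeq on GRCm38.p6, with matches to the searched motifs in capitals. The motifs, on either strand, were the 2 forms of the CHR (TTTGAA, or TTCAAA on the other strand, and TTCGAA), the CCAAT box (ATTGG on the other strand), an E2F site (GGCGGGAA) and the kappaB consensus bound by NF-kB. They lie at chr11:99024190-99024439 (minus strand) for Top2a, chr3:89418292-89418541 (minus strand) for Cks1b and chr11:117848987-117849236 (plus strand) for Birc5.
Top2a: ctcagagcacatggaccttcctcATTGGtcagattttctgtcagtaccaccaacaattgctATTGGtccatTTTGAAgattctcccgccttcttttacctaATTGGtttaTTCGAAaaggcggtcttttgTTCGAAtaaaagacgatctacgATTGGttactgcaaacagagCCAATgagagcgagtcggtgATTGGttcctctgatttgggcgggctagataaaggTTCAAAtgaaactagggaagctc
Cks1b: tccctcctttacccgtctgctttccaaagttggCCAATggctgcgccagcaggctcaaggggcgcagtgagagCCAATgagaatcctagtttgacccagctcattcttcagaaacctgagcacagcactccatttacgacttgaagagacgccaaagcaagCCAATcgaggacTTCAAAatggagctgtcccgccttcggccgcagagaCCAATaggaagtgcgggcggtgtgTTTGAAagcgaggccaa
Birc5: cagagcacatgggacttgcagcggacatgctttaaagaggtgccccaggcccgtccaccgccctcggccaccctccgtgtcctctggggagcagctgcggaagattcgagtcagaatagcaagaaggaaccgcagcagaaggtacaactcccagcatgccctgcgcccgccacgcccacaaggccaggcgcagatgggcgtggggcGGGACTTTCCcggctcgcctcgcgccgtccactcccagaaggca
Top2a held 6 CCAAT boxes, 2 matches to TTTGAA and 2 to TTCGAA. Cks1b held 4 CCAAT boxes and 2 matches to TTTGAA, the nearer of which begins 17 bases before the start. Birc5 held no CHR form, CCAAT box or E2F site in this window, and the match in capitals, 44 to 35 bases before the start, is to the kappaB consensus. The windows of Ran and Rcc2 held none of the motifs.

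Of the 40 genes, 33 had an entry in the promoter table, where each window runs from 250 bases before to 50 after the start. Either CHR form was in a window of 23 of the 33 (69.7%), against 21.7% of all 27025 genes in that table. CCAAT was in 25 (75.8% against 41.1%), the E2F site in 0 (against 2.52%) and the kappaB consensus in 3, Birc5, Kif23 and Ncapd2 (9.09% against 5.14%). A match of letters is a description and not evidence that a factor bound there in these cells.

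In NF-kB1-deficient mice none of the 8 tested genes was called between imiquimod and sham, and none reached an unadjusted p under 0.05. No gene of the whole table was called either (0%), and 53 of 1571 had an unadjusted p under 0.05 in the limma fit. The largest changes were those of Cks1b, 1.98 ± 1.16 (log2, SE), and Top2a, 1.69 ± 1.16 (both adjusted p = 0.996). Their 95% intervals ran from -0.32 to 4.28 and from -0.60 to 3.97, and the wild-type estimate lies within the interval for Cks1b (3.83) and just above it for Top2a (4.01). For Birc5 the change was 0.88 with an interval from -1.74 to 3.51, which ends below the wild-type estimate of 4.60. Such placements leave out the error of the wild-type estimate. The limma test of the difference in response, given below, called neither Birc5 (adjusted p = 0.462) nor Top2a (0.649). Cks1b was the only one of the 38 genes without overlap between these groups (2.63%, where 3% of all genes were higher without overlap), and none was lower without it (1.62% of all genes).

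Under sham cream the genotypes were close. None of the 8 genes was called (0% of all genes were), none had an unadjusted p under 0.05, and 96 of the 1571 genes did. Estimates ran from -1.44 ± 1.30 for Smc2 (adjusted p = 0.947) to 0.85 ± 1.16 for Top2a (adjusted p = 0.974), and no gene of the 38 separated the groups, where 1.56% of all genes did with NF-kB1-deficient mice higher and 1.95% with them lower. These intervals are wide, and for Smc2 the interval ran from -4.02 to 1.13.

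Under imiquimod the NF-kB1-deficient libraries had lower values of most of these genes than the wild type. Of the 38 genes seen, 26 had a lower and 11 a higher mean. Of all 9732 genes above 0, 3687 had a lower and 4477 a higher mean. Rcc2 was at 34.6, 16.1 and 20.8 against 75.5, 40.002 and 149.5. It was the only one of the 8 tested genes called, with a log2 fold change of -1.72 ± 0.49 (SE; adjusted p = 0.0424). Of all tested genes, 0.509% were called lower and 1.27% higher. The groups did not overlap. The Rcc2 call was lost without replicate 1 of NF-kB1-deficient sham (adjusted p = 0.0559), wild-type imiquimod replicate 1 (0.0896) or 3 (-1.24, adjusted p = 0.269), or NF-kB1-deficient imiquimod replicate 1 (0.0503), 2 (0.319) or 3 (0.159).

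Birc5, Smc2, Reep4 and Ran were also lower in every NF-kB1-deficient imiquimod library than in any wild-type one, but were not called. Their log2 fold changes were -3.68 ± 1.33 (adjusted p = 0.152), -3.29 ± 1.30 (0.200), -3.11 ± 1.23 (0.200) and -2.21 ± 0.95 (0.249). With Ttk and Rcc2, 6 of 38 genes (15.8%) were lower without overlap, against 2.44% of all genes above 0. Smc4 went the other way, 1.12 ± 0.40 (adjusted p = 0.147), and with Pttg1 was higher without overlap (5.26% of the 38, against 4.27%). Top2a (-1.47 ± 1.16, adjusted p = 0.619) and Cks1b (-1.31 ± 1.16, adjusted p = 0.650) overlapped between the genotypes. This comparison shares the wild-type imiquimod libraries with the one above, so their high values enter both.

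**Figure D4:**
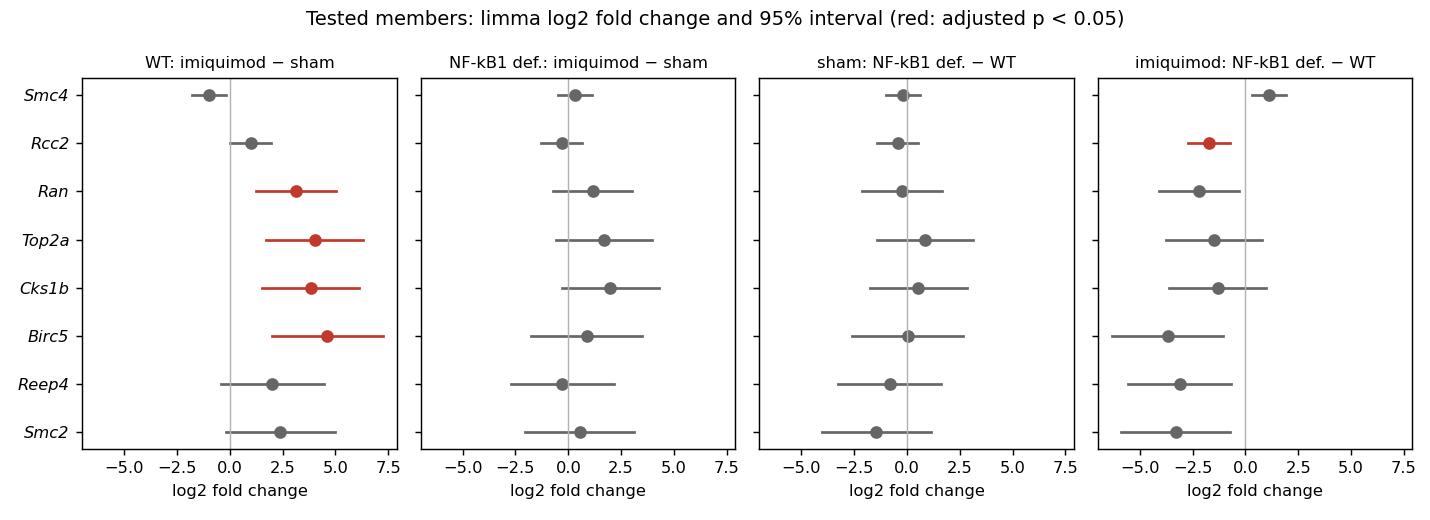
Log2 fold change (x axis, limma on log2(normalized value + 1)) with its 95% interval for the 8 tested genes (rows) in the 4 comparisons (panels), red where the adjusted p was under 0.05. In wild type 4 genes are red on the right, in NF-kB1-deficient mice and under sham none is, and in the genotype comparison under imiquimod Rcc2 is red on the left.

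Whether the response to imiquimod differed between genotypes was tested by the interaction term. None of the 8 genes was called, where 0.446% of tested genes were (7 of 1571). 2 of the 8 had an unadjusted p under 0.05: Birc5, with a difference of -3.72 ± 1.88 on the log2 scale (SE; adjusted p = 0.462), and Smc4, with 1.30 ± 0.57 (adjusted p = 0.362). For the other 6 the differences lay between -2.32 (Top2a) and -1.30 (Rcc2). Calls in wild type beside no calls in NF-kB1-deficient mice are therefore not shown by this test to be different responses.

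How the libraries were scaled bears on these calls. The wild-type imiquimod libraries had the 3 highest summed values (36846, 37487 and 40618, of a range from 31878). With every library scaled to the same sum, the median log2 change of all tested genes in wild type moved from -0.07 to -0.25, and the calls moved from 26 higher and 25 lower to 19 and 29. In the genotype comparison under imiquimod the median moved from 0.13 to 0.34 and the calls from 20 higher and 8 lower to 25 and 5. Equal sums thus did not turn the balance of calls in the genotype comparison. It did turn with a pseudocount of 10 (11 higher and 17 lower) and with only the groups compared in the fit (5 higher and 12 lower). With every library scaled to the same sum, Birc5 (4.46, adjusted p = 0.0368) and Top2a (3.87, adjusted p = 0.0372) rose in wild type. With the same scaling Ran (2.98, adjusted p = 0.0607) and Cks1b (3.69, adjusted p = 0.0554) were not called. Rcc2 was then not called between genotypes (-1.51, adjusted p = 0.0768). None of these 5 changed direction.

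Other genes of the cell cycle were taken from 6 lists with 141 genes in the table, of which 14 could be tested. The nearest to the 40 genes, 55 further kinetochore and spindle genes of which 45 were seen, had sums of 58.9, 32.5 and 34.5 for wild-type sham, 138, 115 and 152 for wild-type imiquimod, 22.1, 32.8 and 44.5 in NF-kB1-deficient sham and 32.3, 31.4 and 52.2 in NF-kB1-deficient imiquimod. Here too the wild-type imiquimod libraries were the 3 highest and the other groups overlapped. Their 2 most abundant genes, Rcc1, the exchange factor that loads Ran with GTP (1.51 ± 1.09 in wild type, adjusted p = 0.462), and Numa1, which anchors spindle poles (-0.78 ± 1.21, adjusted p = 0.766), were not called.

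For cytokinesis the 2 most abundant were Rhoa, the GTPase of the contractile ring (1.24 ± 0.87, adjusted p = 0.449), and Plk4, a centriole kinase that could not be tested (at most 3.49 outside wild-type imiquimod replicate 3, where it was 26.7). Of the cohesin genes, which hold sister chromatids together, Nipbl (-0.04 ± 0.82, adjusted p = 0.987) and Smc3 (1.02 ± 0.80, adjusted p = 0.505) were not called, and the list's sum overlapped between the wild-type groups (50.5 to 79.9 under sham, 78.1 to 112 under imiquimod). Of the anaphase-promoting complex subunits, Anapc11 (0.84 ± 1.59, adjusted p = 0.812) was not called and Anapc4 was untested, at 0 to 14.7. The entry phosphatases Cdc25b and Cdc25a were untested as well and reached 11.68 and 14.7. Over the 118 genes of the 6 lists seen in any library, the fit without a filter gave a median log2 change of 0.34 in wild type.

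The list of G1 cyclins and CDK inhibitors held the one call among these lists, and it was for a gene that acts against proliferation. Btg1 was at 64.3, 42.7 and 36.6 in wild-type sham and 4.72, 7.37 and 5.94 in wild-type imiquimod, with 32.3, 25.5 and 16.4 in NF-kB1-deficient sham against 44.7, 36.7 and 47.4 in NF-kB1-deficient imiquimod. All 3 wild-type imiquimod libraries were below the other 9. Btg1 fell by 2.78 ± 0.60 on the log2 scale in wild type (adjusted p = 0.00108), was higher in NF-kB1-deficient than wild-type mice under imiquimod (2.66 ± 0.60, adjusted p = 0.00510), and its response differed between genotypes (3.59 ± 0.84, adjusted p = 0.0113). The call within wild type held with any 1 library left out. All 3 calls were lost in the fit with no filter (adjusted p = 0.0592, 0.283 and 0.758) and without trend and robust moderation (0.0519, 0.173 and 0.221). The call between genotypes was also lost without NF-kB1-deficient imiquimod replicate 3 (0.0526), and that of the interaction without replicate 1 of wild-type sham (0.0781), replicate 3 of NF-kB1-deficient sham (0.0637) or NF-kB1-deficient imiquimod replicate 1 (0.0650) or 3 (0.0784).

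Of 6 tested genes of T cell and gamma delta identity, 3 had a positive and 3 a negative change in wild type. Only 1 was called, Tcrd, which was lower, where 1.59% of tested genes were called lower. Cd44 (3.46 ± 1.13 in log2, SE, adjusted p = 0.0706), Thy1 (0.50), Tcrg-C2 (0.0073), Cd247 (-0.72) and Cd3d (-2.45) were not called. Tcrd, the delta chain locus that defines gamma delta T cells, was at 65.8, 68.7 and 76.8 in wild-type sham and 14.1, 30.5 and 19.8 in wild-type imiquimod, without overlap, and fell by 1.73 ± 0.43 on the log2 scale (adjusted p = 0.00905). That call was lost without replicate 1 of wild-type imiquimod (0.0610) or replicate 3 of wild-type sham (0.0536), with no filter (0.299), without trend and robust moderation (0.175) and with only the groups compared in the fit (0.0543). It was between 40.3 and 72.8 in the NF-kB1-deficient libraries. Of 17 genes of T cell and gamma delta identity, 13 were seen, Trdc, Tcrg-C1, Tcrg-C4 and Il17a being at 0 throughout. Their sum was 125 to 158 in wild-type sham, 100.1 to 161 in wild-type imiquimod, 99.9 to 212 in NF-kB1-deficient sham and 146 to 182 in NF-kB1-deficient imiquimod. Of 9 alpha beta T cell genes 4 were seen, almost all of their value being Tcrb, a locus that was at 57.4 to 103 in every library. Trac, Trbc1, Trbc2, Cd4 and Foxp3 were at 0. The alpha beta list summed to 78.6 to 110.1 in wild-type sham, 60.6 to 85.4 in wild-type imiquimod, 88.0 to 109 in NF-kB1-deficient sham and 84.6 to 90.3 in NF-kB1-deficient imiquimod.

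Cells that also divide in an inflamed lymph node include germinal centre B cells. Of 8 B cell genes only Blk was seen, at 11.6 in wild-type imiquimod replicate 2 and 2.59 in NF-kB1-deficient imiquimod replicate 3, and Cd79a, Cd79b and Ms4a1 were at 0 in all libraries. Of 10 germinal centre and plasma cell genes 7 were seen, summing to 3.73 to 6.71 in wild-type sham, 6.93 to 15.8 in wild-type imiquimod, 0 in each NF-kB1-deficient sham library and 2.44 to 17.2 in NF-kB1-deficient imiquimod. The 14 genes of macrophages, monocytes and dendritic cells, 6 of them seen, summed to 2.48 to 4.88 in wild-type sham, 4.72 to 21.8 in wild-type imiquimod, 0 to 4.40 in NF-kB1-deficient sham and 0 to 15.6 in NF-kB1-deficient imiquimod, with Lyz2, Csf1r and Itgam at 0. None of 5 neutrophil genes was seen. NK cell genes (2 of 4 seen) summed to at most 10.48, those of keratinocytes and stroma (3 of 7) to at most 8.07, and those of erythroid cells (5 of 6) to at most 4.76 except for 50.6 in NF-kB1-deficient imiquimod replicate 3. The part of other cells in the values of the mitotic genes was not tested.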

How the data were processed

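The authors deposited a table of log2 normalized read counts from QuantSeq 3' FWD libraries of Trizol RNA (per the labels' protocols) read on build mm10 (per the submitters' processing notes). No source used here names the aligner, counter, annotation or normalization tool. A value of 0 stands for 0 or less than 1. Values were taken back to the linear scale, and 71.3% to 80.3% of values under 20 reads came to whole reads within 0.01, so no count test was run. The test was limma 3.58.1 (R 4.3.3, eBayes with trend and robust) on log2(value + a pseudocount of 1), for 1571 genes with a mean of at least 5 over 12 libraries, 1 coefficient per group, with Benjamini-Hochberg adjustment over all 1571. It was tested on simulated data first. Residual degrees of freedom were 8 and the median prior 145, so tests lean on the spread shared by genes. Tables were built with pandas 2.3.3. The 40 genes and all lists were chosen with earlier results of these data known. Tested genes are given in every library, as are the 10 most abundant of the others. For the rest, single values, an upper bound or the sum of a role is given. Of the other cell cycle lists the called genes are named, or else the 2 most abundant. Coordinates are from RefSeq (GRCm38.p6). Alternatives covered pseudocount, filter, scaling, moderation, libraries in the fit, replicate block and leaving out each library.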

Additional observations from a re-analysis of the deposited data

How the results depend on the processing

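The 4 genes that rose in wild type kept their direction under all alternatives run, but not their calls. Their number was 4 with a pseudocount of 10 (1.66 to 2.07 in log2 fold change), 2 with libraries scaled to equal sums, 2 with only the groups compared in the fit, 1 without trend and robust moderation, and 0 with a pseudocount of 0.1, with no filter and with a minimum mean of 20, where only Smc4, Rcc2 and Ran could be tested. Leaving out 1 library gave 0 to 4, with 0 without wild-type sham replicate 3 or wild-type imiquimod replicate 3. Birc5 was called in 7, Top2a in 8, Ran in 5 and Cks1b in 5 of these 12 fits. For the genotypes under imiquimod the 1 call (Rcc2) became 3 with a pseudocount of 10 (Birc5, Ran and Rcc2), 0 with a pseudocount of 0.1, with no filter and without trend and robust moderation, and 0 to 1 with a library left out. With equal sums and with only the groups compared the count was 1, but the gene was Smc4 (higher) and Birc5 (lower) in turn. The causes were not tested. The other 3 comparisons had 0 calls of these genes throughout.

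Over all genes, the wild-type comparison had 51 calls, against 26 with a pseudocount of 0.1, 11 with no filter, 28 with only the groups compared, 18 without trend and robust moderation, 72 with a pseudocount of 10, and 23 to 72 with a library left out. The genotype comparison under imiquimod had 28, against 18, 3, 17 and 0, and 4 to 42. The interaction had 7, against 1 with no filter, 13 with a minimum mean of 20, 0 without trend and robust moderation, and 2 to 12 with a library left out.

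Labels give the groups the same replicate numbers, but same-numbered libraries did not deviate together (correlations of -0.00983 to 0.0609 over 18 pairs, 0 over 0.1), so the numbers were not used as pairs. With the replicate block the counts were 4, 1 and 0 for wild type, genotype under imiquimod and interaction.

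The summed values moved without Smc4, to 67.1 (wild-type sham), 67.7 (NF-kB1-deficient sham) and 92.7 (NF-kB1-deficient imiquimod), and without Smc4, Rcc2 and Ran, chosen after seeing the data, to 19.2, 32.6, 57.5 and, for wild-type imiquimod, 233. With 1 library left out the means ran from 123 to 157, 113 to 165, 165 to 188 and 329.8 to 496 in the same order. In 7 fold changes that were not called the sign turned. Between genotypes under sham, Ran was 0.0595 with a pseudocount of 10 and ran from -0.81 to 0.93 with a library left out, Birc5 from -0.56 to 0.60, Cks1b from -0.17 to 1.29 and Smc4 from -0.62 to 0.0703. In NF-kB1-deficient mice Reep4 was 0.50 with a pseudocount of 0.1 and ran from -0.99 to 1.12 with a library left out, Smc2 from -0.0596 to 1.097 and Ran from -0.0029 to 1.73. Over all tested genes a log2 fold change had a median SE of 1.12, and 32 of the 40 genes were under the filter and not tested.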
